A study of Mus musculus with 4 samples.

Results

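The transcripts described here come from 6 genes of the pluripotency network of mouse embryonic stem cells: Pou5f1, Sox2, Nanog, Sall4, Mycn and Lin28a. Their eIF4A2 binding was read from the deposited list of eCLIP peaks by taking every peak on the gene's strand whose midpoint lay in a fixed window around the gene (genome build mm9, positions counted from 1). The windows held 61 of the 47777 peaks of the list (0.128%). Sall4 had 19 peaks, Sox2 had 15, Mycn had 10, Pou5f1 had 8, Lin28a had 8 and Nanog had 1. The windows were chosen by gene and no measured value entered the rule, but the genes were picked with earlier results of these data known.

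The series profiled J1 cells, which derive from the strain 129S4/SvJae and were kept without feeders in serum and leukemia inhibitory factor, after crosslinking with ultraviolet light of 254 nm at 400 mJ/cm2. It held 2 IP libraries made with an antibody against eIF4A2 and 2 input libraries of the same cells without that step, and the labels name no mutation or treatment other than the crosslinking. In eCLIP, ultraviolet light ties a protein to the RNA it touches, and the RNA recovered with the protein (IP) is set against RNA of the lysate before recovery (input). The authors deposited 1 list for the 4 libraries, with a single log2 fold of IP over input per peak, and all values below are theirs. The list has no value per library, so no spread between replicates, no depth and no error of a fold can be given, and no test between samples could be run. All its folds lie above 2 (log2 fold of 1), so a window outside a peak says only that no peak above that limit was listed there.

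eIF4A2 is a DEAD-box RNA helicase and a close paralog of eIF4A1, the helicase of the cap-binding complex that opens structured leader sequences for the scanning ribosome. Pou5f1 (also called Oct4), Sox2 and Nanog are the transcription factors that hold embryonic stem cells in the undifferentiated state, and they bind one another's regulatory regions. Sall4 and Mycn are transcription factors that act with them in self-renewal, and Lin28a is an RNA-binding protein that blocks maturation of let-7 microRNAs and binds many mRNAs. The window of each gene was 1943 to 3488 bases longer than its model in the GENCODE M21 annotation (build GRCm38), which served here for lengths, strands and overlapping genes only. No peak was placed in an exon, an intron or an untranslated region, because that annotation is of another build, and no sequence under a peak is given for the same reason.

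All 6 genes carried at least 1 peak, but in number and density they were far apart. Per kb of window, Sox2 had 3.75 peaks, Mycn 1.11, Pou5f1 1.00, Sall4 0.864, Lin28a 0.421 and Nanog 0.100. Sox2 was therefore the densest and Nanog the sparsest by this measure, and Sall4, first by count, came after Sox2, Mycn and Pou5f1. Per kb of the longest protein-coding GENCODE transcript, a length that leaves out introns although peaks may lie in them, Sox2 had 7.29 peaks, Pou5f1 5.87, Sall4 3.75, Mycn 3.74, Lin28a 2.28 and Nanog 0.452. For peaks as deposited, Sox2 was first and Lin28a and Nanog last on both scales. The Sox2 value counts all 15 peaks of its window, whose span of 2230 bases exceeds the 2057 bases of the transcript. Bases under peaks summed to 866 in Sox2, 575 in Sall4, 455 in Mycn, 449 in Pou5f1, 290 in Lin28a and 48 in Nanog. Merging peaks within 50 bases of each other left 2 of the 8 peaks of Pou5f1 and 6 of the 15 of Sox2, and Sox2 then came after Sall4 (18), Mycn (10) and Lin28a (7) by count. Merging would lower the densities of Pou5f1 and Sox2 most. Densities of merged peaks were not computed, so the 2 orders by density hold only for peaks as deposited. The list holds no transcript level, so these counts are not corrected for the abundance of the mRNA.

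Peaks were much denser in the windows than in the sequence around them. The 6 windows held 61 peaks in 72 kb (0.847 per kb), against 18 peaks on the same strands in the 1200 kb that flank them, 100 kb on each side (0.0150 per kb). Around Nanog and Mycn the flanks held 0 peaks on the gene's strand. For Mycn the next peak on the strand lay 292492 bases beyond the 5′-most peak and 1687169 bases beyond the 3′-most. Widening each window by 2000 bases at both ends added 0 peaks. The flanks include sequence with no gene, so the ratio describes the neighbourhood and not other transcribed RNA.

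**Figure D1:**
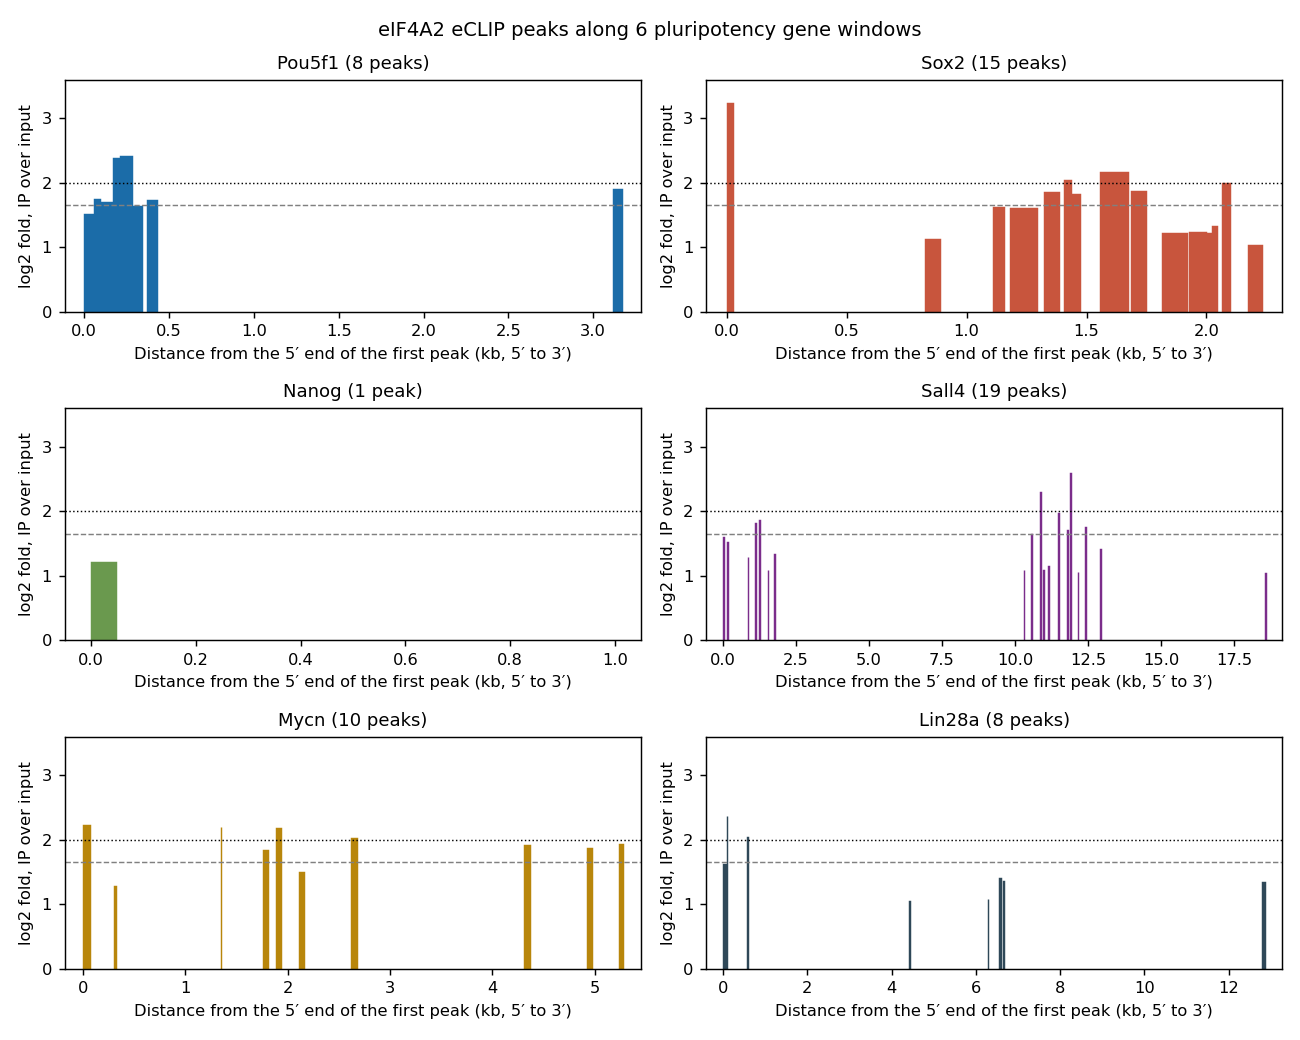
Peaks along the 6 gene windows. Each bar is 1 peak, drawn to its width with a thin outline, at its distance in kb from the 5′ end of the gene's first peak (x axis) and with the authors' log2 fold of IP over input as height (y axis); the dashed line is the median of the whole list (1.65), the dotted line a log2 fold of 2, and the scale of the x axis differs between panels. Pou5f1 has 7 of its 8 peaks within 426 bases, Sox2 has 14 of its 15 within 1404 bases, Sall4 has groups of 7 and 11 peaks, and Nanog has 1 peak.

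Enrichment in these transcripts was moderate. The 61 peaks had a median log2 fold of 1.64 (3.12-fold), with an interquartile range of 1.29 to 1.94, and the whole list had a median of 1.65 (3.15-fold), with an interquartile range of 1.29 to 2.07. A log2 fold above the list's median was found in 30 of the 61 peaks (49.2%). At 4-fold or more (log2 fold of 2) were 13 of the 61 peaks (21.3%), spread over 5 of the 6 genes, against 28.3% of the whole list. At 8-fold or more (log2 fold of 3) was 1 of the 61, a peak of the Sox2 window, against 4.03% of the list. Both shares were below those of the list, and the highest log2 fold was 3.24 in the windows and 5.63 in the list; no test was made of these differences.

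The genes could be put in an order by their median, but neighbours in it overlapped and the order changed when adjoining peaks were merged. Mycn had the highest median log2 fold, 1.93 (interquartile range 1.86 to 2.15), followed by Pou5f1 with 1.75 (1.69 to 2.02), Sox2 with 1.62 (1.23 to 1.93), Sall4 with 1.53 (1.12 to 1.79), Lin28a with 1.38 (1.28 to 1.73) and Nanog with its single value of 1.21. The full ranges overlapped for every pair of neighbours in this order, and the interquartile ranges overlapped for all pairs except Lin28a and Nanog, where Nanog has 1 peak. Mycn had 8 of 10 peaks above the list's median and Pou5f1 had 6 of 8, against 7 of 15 in Sox2, 7 of 19 in Sall4, 2 of 8 in Lin28a and 0 of 1 in Nanog. With peaks merged within 50 bases, which keeps the highest fold of each merged run, Pou5f1 (median log2 fold 2.16, 2 peaks) and Sox2 (2.02, 6 peaks) came before Mycn (1.93, 10 peaks). The gaps in Mycn were 78 bases or more, so none of its peaks merged. This change of order is thus partly built into the merging rule. Peaks of 1 transcript are not replicates, and no test was made of these differences.

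**Figure D2:**
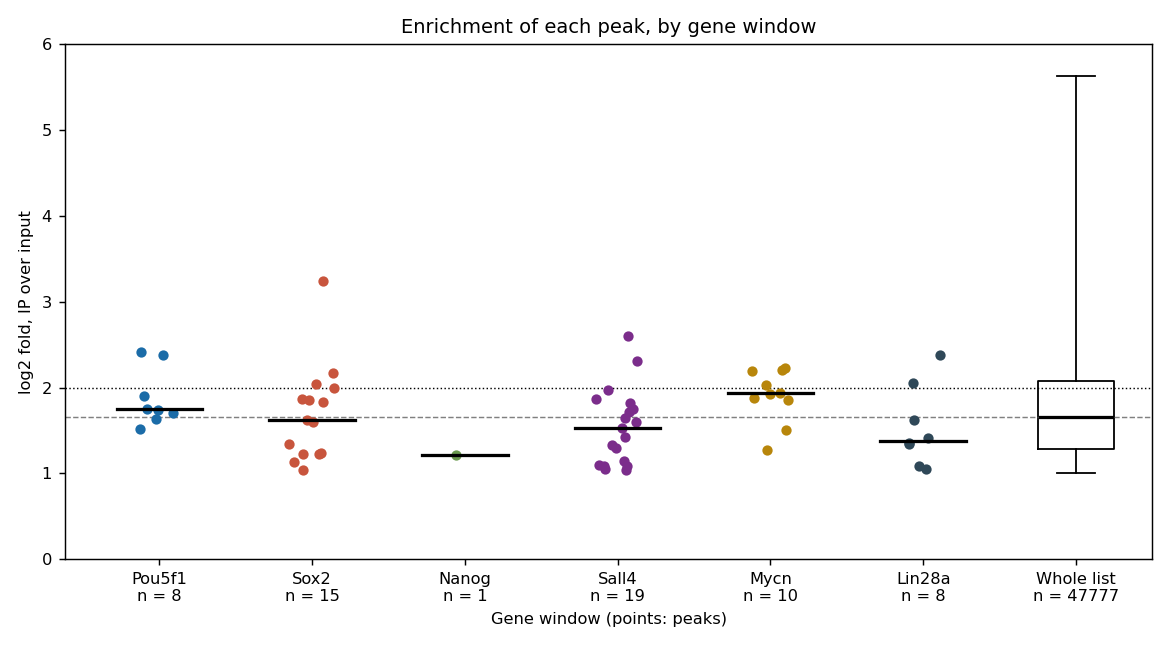
Log2 fold of IP over input (y axis) of every peak in the 6 gene windows (points, by gene on the x axis, with black bars at the medians) and of the whole list of 47777 peaks (box from the first to the third quartile, line at the median, whiskers to the lowest and highest value). The dashed line marks the list's median of 1.65 and the dotted line a log2 fold of 2; 13 of the 61 points lie at or above the dotted line, and 1, in Sox2, lies above 3.

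Pou5f1, the POU-domain factor, carried its peaks almost entirely in one compact block. On the plus strand of chromosome 17, in the window from 35641000 to 35649000, the first 6 peaks followed one another without a gap from 35642997 to 35643336, so that 340 consecutive bases were covered. With the next peak, 29 bases on, the block held 7 peaks in 426 bases, of which 93.2% were covered. The first peak, at 35642997 to 35643051, had a log2 fold of 1.52, the lowest of the 8. Enrichment was highest inside the block, at the adjoining peaks 35643207 to 35643278 (log2 fold 2.41, 5.31-fold) and 35643169 to 35643206 (2.38, 5.20-fold). These were the only Pou5f1 peaks at 4-fold or more. The remaining peaks of the block had log2 folds of 1.64 to 1.75. The last peak, at 35646113 to 35646164, stood alone 2690 bases further 3′ with a log2 fold of 1.90, which was the third highest of the gene. Pou5f1 has 7 pseudogenes in the RefSeq gene table (GRCm38.p6), and the treatment of reads that match several places is not given in the sources used here, so reads shared with those copies could have been assigned either way.

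Sox2, the HMG-box partner of Pou5f1, had the chain with the most peaks of the 6 genes. A chain is a run of peaks on one strand with gaps of at most 1000 bases. All 15 Sox2 peaks, on the plus strand of chromosome 3 in the window from 34548000 to 34552000, formed a chain of 2230 bases (the Sall4 chain of 11 peaks was longer, 2638 bases), and a chain of at least that many peaks was found 47 times among the 31595 chains of the list (0.149%). Its median log2 fold of 1.62 was above that of 52 of the 172 chains with 10 or more peaks (30.2%), while the share of its length under peaks, 38.8%, was above that of 129 of them (75%). Among large chains, Sox2 thus ranked higher by the bases covered than by enrichment. Merging within 50 bases left 6 of the 15 peaks, so these ranks hold for peaks as deposited.

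Along Sox2 a middle run of 7 peaks had higher folds than most of the peaks 3′ of it. The first peak, at 34548162 to 34548189, had the highest log2 fold of the 6 windows, 3.24 (9.45-fold). It was 28 bases wide and lay 798 bases 5′ of the others. The following peak had a log2 fold of 1.14. The next 7, from 34549272 to 34549909, had log2 folds of 1.60 to 2.17, and among them were the peaks at 34549719 to 34549835 (2.17, 117 bases wide, the widest of the 61) and at 34549568 to 34549595 (2.04). The last 6, from 34549976 to 34550391, had a median of 1.23, although 1 of them reached 2.00, just below 4-fold. The 3′-most peak, at 34550335 to 34550391, had a log2 fold of 1.04, the lowest of the gene. Sox2 is an intronless gene that lies inside Sox2ot, a long non-coding RNA gene on the same strand in GENCODE M21. Strand cannot tell the transcripts of these genes apart. The 15 peaks span 2230 bases, more than the 2057 bases of the Sox2 model, so they cannot all lie in a gene of that length. Which of them lie outside Sox2, and whether the isolated first peak belongs to Sox2 or to Sox2ot, was not determined. Without the first peak, the other 14 span 1404 bases. They had a median log2 fold of 1.61, and 2 of them reached 4-fold.

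Nanog, the homeodomain factor of the core network, had the fewest peaks of the 6 genes. In its window (chromosome 6, 122656000 to 122666000, plus strand) the only peak lay at 122657633 to 122657680, was 48 bases wide and had a log2 fold of 1.21 (2.31-fold). Only 14.7% of the peaks of the list had a lower fold. No other peak on that strand lay within 390216 bases on the 5′ side or 112760 bases on the 3′ side. Nanog has 2 pseudogenes in the same RefSeq table, with the same limit on shared reads as for Pou5f1.

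Sall4, the zinc-finger factor, had the most peaks, arranged in separate groups over 18578 bases of the minus strand of chromosome 2 (window 168572000 to 168594000). A 5′ group of 7 peaks lay at 168590801 to 168592588, with log2 folds of 1.09 to 1.86 and a median of 1.53. After a gap of 8510 bases came a group of 11 peaks at 168579653 to 168582290, with log2 folds of 1.06 to 2.60 and a median of 1.64. The last peak followed after a further 5605 bases. The most enriched Sall4 peaks were all in the group of 11, at 168580667 to 168580691 (log2 fold 2.60, 6.05-fold), 168581681 to 168581716 (2.30) and 168581079 to 168581124 (1.97). Only the 2 first of these reached 4-fold. The 5′-most peak, at 168592541 to 168592588, had a log2 fold of 1.60, and the 3′-most, at 168574011 to 168574047, had 1.04, the lowest of the 61. The group of 11 was a large chain in the list (127 chains, or 0.402%, had at least as many peaks). Peaks covered 13.9% of its length, a share above that of 40 of the 172 chains with 10 or more peaks (23.3%). In contrast to Pou5f1 and Sox2, the Sall4 peaks never touched, with gaps of 50 bases or more.

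Mycn, the N-Myc proto-oncogene, had the highest median fold among the peaks as deposited, though not after merging, which keeps the highest fold of each run. Its 10 peaks lay on the minus strand of chromosome 12 (window 12941000 to 12950000) over 5278 bases, in 3 chains of 2, 5 and 3 peaks in the 5′ to 3′ direction. The most enriched was the 5′-most, at 12948556 to 12948626, with a log2 fold of 2.22 (4.67-fold). It was closely followed by the peaks at 12947274 to 12947280 (2.20), which spanned only 7 bases, and at 12946695 to 12946742 (2.19). Of the 10 peaks, 4 (40%) were at 4-fold or more, against 28.3% in the list. This was the highest share among the 6 genes as deposited. After merging within 50 bases the share was 40% in Mycn and 50% in both Pou5f1 (1 of 2) and Sox2 (3 of 6). The 3 in Sox2 include its isolated first peak, which may belong to Sox2ot. A merged run keeps its highest fold, and the merged share of the list was not computed. The 28.3% is therefore no background for the merged shares. The 3 peaks of the 3′ Mycn chain had log2 folds within 1.87 to 1.94, of which the last, at 12943349 to 12943389, had 1.94. Only 2 Mycn peaks were below the list's median, with log2 folds of 1.28 and 1.51.

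Lin28a, the RNA-binding protein of the set, had its stronger peaks at the 5′ end. The 8 peaks lay on the minus strand of chromosome 4 (window 133558000 to 133577000) over 12869 bases. The 3 most enriched were the 3 most 5′. The first, at 133574667 to 133574730, had a log2 fold of 1.62, the second, at 133574633 to 133574647, had 2.38 (5.20-fold), and the third, at 133574141 to 133574162, had 2.05. The other 5 had log2 folds of 1.05 to 1.41 and lay 3829 bases or more further 3′. The last of them, at 133561862 to 133561949, was the widest of the gene (88 bases) with a log2 fold of 1.34.

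Chains held more peaks in these windows than in the list, with differences between genes. No Lin28a chain had more than 3 peaks, and Nanog had a single peak. Among the 61 peaks, 45 (73.8%) belonged to a chain of 5 or more peaks, against 16.2% of all peaks of the list, and 5 (8.20%) stood alone, against 50.3%. Chains of 10 or more peaks held 26 of the 61 (42.6%), against 4.95% of the list. The 26 were the 15 peaks of Sox2 and 11 of the 19 of Sall4. These counts use peaks as deposited. Merging within 50 bases left 6 peaks in Sox2 and 2 in Pou5f1. After it, Sox2 could form no chain of 10 and Pou5f1 none of 5. Shares of the list after merging were not computed. The 5 peaks without a neighbour were the last of Pou5f1, the peak of Nanog, the last of Sall4, and the fourth and last of Lin28a. Peaks touching the one before them end to end made up 8 of the 61 (13.1%), against 3.84% of the list, 5 of them in Pou5f1 and 3 in Sox2.

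**Figure D3:**
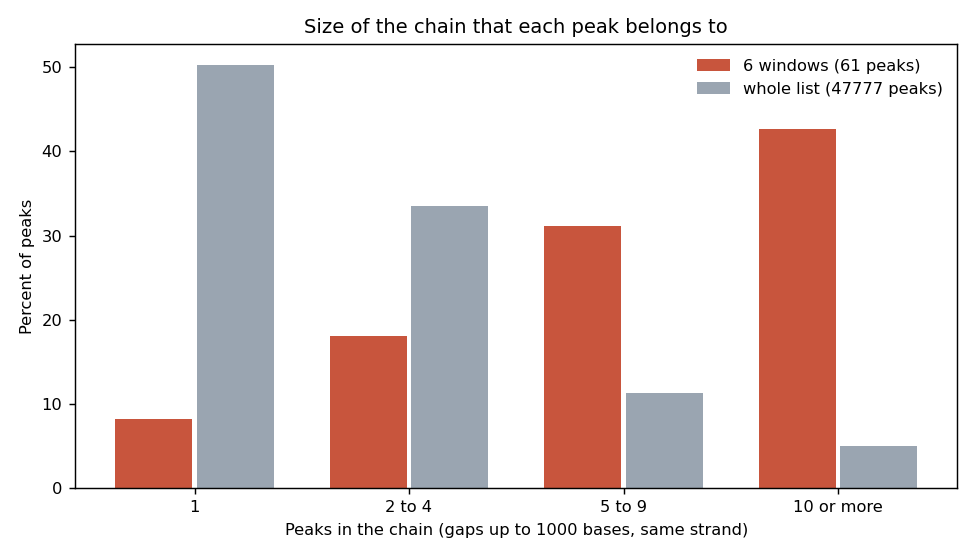
Share of peaks (y axis, percent) by the number of peaks in the chain they belong to (x axis), for the 61 peaks of the 6 gene windows (left bars) and the 47777 peaks of the whole list (right bars). Chains of 10 or more peaks hold 42.6% of the peaks in the windows and 4.95% of the list, and peaks without a neighbour 8.20% and 50.3%. Peaks are counted as deposited, without merging.

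Peaks were also wider than in the list as a whole. The median width was 41 bases (interquartile range 27 to 57) in the 6 windows and 32 bases (19 to 47) in the list. By gene, the median was 57 bases in Sox2, 56 in Pou5f1, 49 in Mycn, 33 in Sall4 and 26.5 in Lin28a, and the Nanog peak had 48. All 8 Pou5f1 peaks were wider than the list's median. A width of 100 bases or more was found in 3 peaks, all of Sox2, against 1.81% of the list.

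The fold values themselves carried some information on the reads behind them. After division by a common constant of 1.18, 99.96% of the folds in the list equalled a ratio of whole numbers with a denominator of at most 200 (relative tolerance 1e-07), and so did all 61 folds of these genes. If such a ratio stands for IP over input reads, the input count is the denominator of the reduced ratio or a multiple of it, so the denominator is a lower limit on the input reads. The counts themselves are not in the list. The median denominator was 16 in the 6 windows and 4 in the list. A denominator over 20 was needed for 21 of the 61 folds (34.4%), against 10.2% of the list, and a denominator of 1 for 3 of them (4.92%), against 27.8%.

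The genes differed in this respect as well. In Sox2, 10 of 15 folds needed a denominator over 20, and in Pou5f1 5 of 8, up to 89, in a ratio of 254 to 89. In Mycn it was 3 of 10, in Sall4 2 of 19 and in Lin28a 0 of 8, while the Nanog fold of 1.21 on the log2 scale equalled 49 to 25. The reduced ratios at the highest folds ranged widely. The isolated first peak of Sox2, with a log2 fold of 3.24, equalled 8 to 1, and the Pou5f1 peak at 2.41 equalled 9 to 2. The most enriched Lin28a peak equalled 22 to 5 and that of Sall4 41 to 8. The 5′-most Mycn peak equalled 91 to 23, so on the reading above at least 23 input reads would stand behind the highest Mycn fold. A small reduced ratio does not show that the counts were small.

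**Figure D4:**
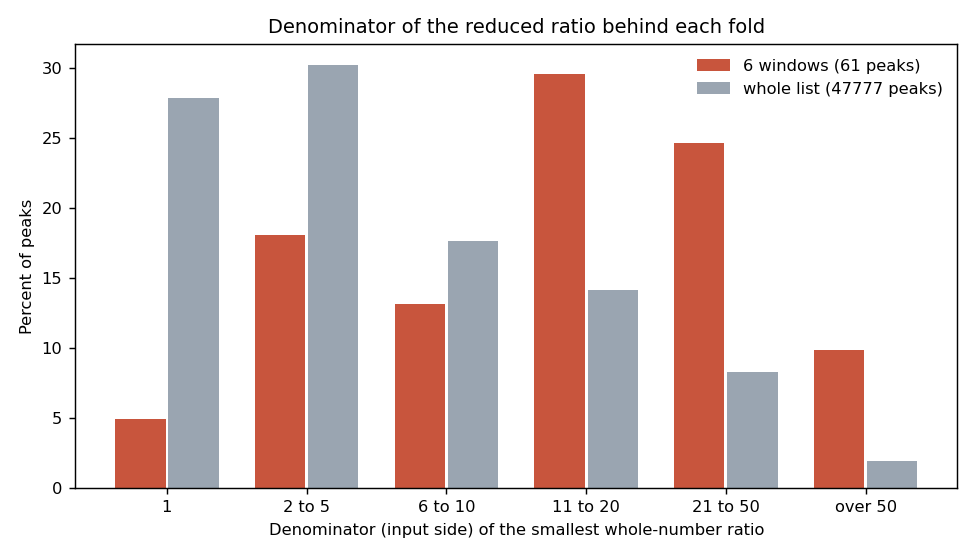
Share of peaks (y axis, percent) by the denominator of the smallest whole-number ratio that equals the fold after division by the constant (x axis), for the 61 peaks of the 6 gene windows (left bars) and the whole list (right bars, 99.96% of its peaks shown). Denominators over 20 are needed for 34.4% of the folds in the windows and 10.2% of the list, and a denominator of 1 for 4.92% and 27.8%.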

How the data were processed

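The submitters' processing notes name STAR 2.6.1b, cutadapt 1.18 and mm9. How peaks were called and filtered, and how replicates were combined, is not given in the sources used here. Each deposited log2 fold of IP over input was calculated by the authors, and its scale was read from the values, since no header states it. Sequencing depth is unknown.

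Peaks were assigned to a gene by midpoint and strand in 6 windows, starts were changed to count from 1, and peaks with gaps up to 1000 bases were chained per strand. The constant behind the folds was the most frequent log2 value minus 1, that is, that value read as a ratio of 2 to 1. Chaining and ratio finding were tested on simulated data. Gene lengths, strands and overlaps came from GENCODE M21 (GRCm38) and pseudogene names from RefSeq. No coordinates were converted, and other genes of the pluripotency network were not analysed here.

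All 6 genes are named. For genes with over 5 peaks, the first, last and 3 most enriched peaks are given, and the other peaks as ranges; peaks outside that rule that are named singly (Sox2 peaks at 1.14 and 2.00, 2 Mycn peaks at 1.28 and 1.51, the Pou5f1 ratio of 254 to 89, the Lin28a peak without a neighbour) were chosen with their values in view. The members and lists were chosen with earlier results of these data known, so no test was made. The alternatives were fold limits, merging within 50 bases, a minimum width of 20 bases, window edges, assignment and strand. Python 3.11.15, numpy 2.4.6, pandas 2.3.3 and scipy 1.17.1 were used.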

Additional observations from a re-analysis of the deposited data

Results flagged for a closer look

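The Sall4 window held 1 peak on the strand opposite to the gene, and it was the only such peak in the 6 windows. It lay at 168592219 to 168592267 of chromosome 2 (plus strand), 146 bases from the nearest Sall4 peak, and 2 of the 19 Sall4 peaks lay further 5′ with respect to Sall4. Its log2 fold was 2.24 (4.72-fold), a value above that of 79.1% of the list and equal to a ratio of 4 to 1. It was singled out because it lies outside the strand that the counts above use. GENCODE M21 (GRCm38) has a non-coding gene, Gm14261, that overlaps Sall4 on the opposite strand; whether the peak lies in it was not determined.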

How the results depend on the processing

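Of 105 alternative values, 69 stayed within the set range (1.5 times for counts, the binomial 95% interval for medians) and 36 did not. That interval treats the peaks of a window as independent draws, which they are not, and with few peaks it is wide. The merged Pou5f1 median of 2.16 thus counted as within the range around 1.75. Some outcomes were fixed in advance, since fold limits of 1.5 or 2 cannot change the 13 peaks at 4-fold or more. The tally is therefore no measure of how firm the results are. Keeping log2 folds from 2 upwards left 13 of the 61 peaks, with a median of 2.22 and 558 of 2683 bases, and keeping those from 1.5 upwards left 39 peaks with a median of 1.87; Nanog had 0 peaks under both limits. On the opposite strand there was 1 peak, with a log2 fold of 2.24 and 49 bases, so that 1 peak reached 4-fold there. Merging peaks within 50 bases left 44 peaks, with 2 in Pou5f1, 6 in Sox2 and 18 in Sall4, so the order of the genes by count changed, and that by median log2 fold became Pou5f1 (2.16), Sox2 (2.02) and Mycn (1.93) before the others. A minimum width of 20 bases left 51 peaks and 5 of the 8 in Lin28a. Window edges and assignment by any base changed no value. No paired analysis was possible because the list has no value per library; leaving out a replicate was not possible either. The read depth behind a fold is unknown.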
